A study of Mus musculus with 69 samples.

Results

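The 56 genes described here encode the machinery of mitosis: the CDK1 kinase and its cyclins, the anaphase promoting complex and its checkpoint, kinetochores, spindle motors and the proteins that split the dividing cell. They were taken by symbol from the tables of gene expression in dissected mouse kidney tubules, and all 56 were listed in each table, of 55487 genes listed in the tables of 24 h and 53700 in those of 72 h. For reading, they were sorted into 8 classes by role. Tubules were dissected by hand from male, wild-type C57BL/6 mice (Taconic), 7 weeks old and weighing 20 to 30 g. The mice had undergone unilateral nephrectomy (UNx, removal of a kidney, which makes the remaining kidney grow) or a sham operation, and RNA was taken 24 h or 72 h later. The segments were the first part of the proximal tubule (PT-S1), which reabsorbs most of the filtered glucose, phosphate and amino acids, and the cortical collecting duct (CCD), which adjusts water, sodium and acid. For PT-S1 there were 3 sham and 4 UNx animals at 24 h (8 and 9 libraries) and 5 of each at 72 h (12 libraries each). For CCD there were 4 sham and 3 UNx animals at 24 h (8 and 7 libraries) and 4 of each at 72 h (7 and 6 libraries). The animal is the replicate, its libraries were averaged, and p-values measure the spread between animals. Values are TPM, a share of transcripts that is corrected for gene length. TPM keep no sequencing depth, so the depth is unknown and no detection limit can be given.

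Most of these genes are silent or nearly so in resting cells and are switched on together late in the cell cycle. In resting cells a repressor complex (DREAM) sits on their promoters, at a DNA element named CHR, and in cycling cells the activators MYB-MuvB and FOXM1 take its place there. The products then act in sequence. Cyclin B and CDK1 start mitosis, the kinetochore ties chromosomes to spindle fibres, the checkpoint holds the cell until all are attached, and the anaphase promoting complex destroys securin and cyclin B. Tubule epithelium in the adult kidney divides rarely.

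Promoter sequence was available for 48 of the 56 genes, from RefSeq on GRCm38.p6, as windows from 250 bases before to 50 bases after the annotated transcription start. The CHR letters TTTGAA or TTCGAA, on either strand, occurred in 35 of these 48 genes (72.9%) and in 21.7% of the 27025 genes with a listed promoter. The CCAAT box, the site of the factor NF-Y, occurred in 35 of 48 members (72.9%) and in 41.1% of all genes. Both kinds were found in the same window in 30 of 48 members (62.5%) and in 8.61% of all genes. TTCGAA reads the same on both strands, and none of these motifs can overlap CCAAT by more than 1 base. The windows below show 180 bases, from 150 before the start, with CHR letters and CCAAT boxes in capitals. On the opposite strand they read TTCAAA and ATTGG. The windows of 6 genes that rose in the collecting duct come first, 1 each for a cyclin, the kinase itself, a pair of anaphase promoting complex proteins, a spindle motor and a chromosome enzyme. Those of Pttg1 and Cks2, which with Spc25 were the 3 most abundant members in PT-S1, follow because no CHR letters were found in their windows. This choice does not stand for the whole list. Spc25 has CHR letters, and Cks2 itself rose in the collecting duct at 72 h. Birc5, Ccnb1, Melk, Nek2, Nusap1, Knstrn and Nuf2 also rose there and have no CHR letters.
Ccnb2 (chr9:70421525-70421704, minus strand): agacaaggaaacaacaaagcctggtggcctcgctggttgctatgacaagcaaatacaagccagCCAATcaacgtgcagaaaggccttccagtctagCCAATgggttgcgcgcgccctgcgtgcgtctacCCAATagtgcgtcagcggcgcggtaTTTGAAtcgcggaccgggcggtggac
Cdk1 (chr10:69352883-69353062, minus strand): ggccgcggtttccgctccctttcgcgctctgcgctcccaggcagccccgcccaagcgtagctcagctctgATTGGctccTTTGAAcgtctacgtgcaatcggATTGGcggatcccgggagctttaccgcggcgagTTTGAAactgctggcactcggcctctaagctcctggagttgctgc
Cdc20 (chr4:118437314-118437493, minus strand): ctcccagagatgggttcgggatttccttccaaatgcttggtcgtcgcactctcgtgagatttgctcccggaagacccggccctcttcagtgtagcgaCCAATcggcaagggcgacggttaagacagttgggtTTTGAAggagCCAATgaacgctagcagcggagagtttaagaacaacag
Ube2c (chr2:164769779-164769958, plus strand): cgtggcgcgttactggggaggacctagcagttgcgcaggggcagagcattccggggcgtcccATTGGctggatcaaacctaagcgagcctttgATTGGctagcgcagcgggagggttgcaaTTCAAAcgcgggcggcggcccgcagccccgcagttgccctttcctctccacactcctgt
Kif22 (chr7:127042391-127042570, minus strand): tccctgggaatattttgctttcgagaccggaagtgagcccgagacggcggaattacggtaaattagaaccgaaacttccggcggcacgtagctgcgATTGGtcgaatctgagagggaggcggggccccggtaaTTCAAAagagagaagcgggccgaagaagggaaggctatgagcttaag
Top2a (chr11:99024160-99024339, minus strand): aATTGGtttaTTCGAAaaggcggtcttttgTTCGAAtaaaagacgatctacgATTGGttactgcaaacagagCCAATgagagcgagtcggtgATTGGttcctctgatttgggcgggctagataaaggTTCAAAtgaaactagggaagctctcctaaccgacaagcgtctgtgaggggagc
Pttg1 (chr11:43425952-43426131, minus strand): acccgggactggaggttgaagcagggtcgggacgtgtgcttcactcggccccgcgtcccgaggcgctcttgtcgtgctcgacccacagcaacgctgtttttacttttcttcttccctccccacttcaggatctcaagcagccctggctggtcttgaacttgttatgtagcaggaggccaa
Cks2 (chr13:51645082-51645261, plus strand): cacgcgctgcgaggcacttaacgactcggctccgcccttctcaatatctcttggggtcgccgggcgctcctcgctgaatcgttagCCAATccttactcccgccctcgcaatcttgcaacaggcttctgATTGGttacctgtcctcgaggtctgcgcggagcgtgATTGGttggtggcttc
In Ccnb2 the CHR letters lie just behind 3 CCAAT boxes, and in Ube2c they are on the other strand behind a pair of boxes. The nearest CHR letters began within 50 bases of the annotated start in 31 of 48 members (64.6%) and in 6.12% of all genes. Over the 35 members with CHR letters, the first base lay between 103 bases before and 40 bases after the start, with a median of 4 bases after it. In the narrower window from 100 bases before to 50 after the start, CHR letters were found in 33 of 48 members (68.8%) and in 9.87% of all genes, and CCAAT boxes in 66.7% and 26.3%. Letters that match an element are a description of the sequence and not of binding, which was not measured here.

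**Figure D1:**
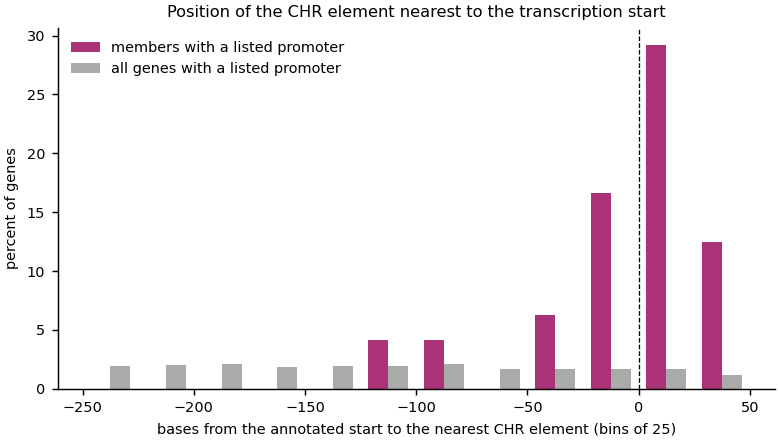
Percent of genes (y axis) whose nearest CHR letters begin in each bin of 25 bases from the annotated transcription start (x axis), for the 48 members with a listed promoter and for all 27025 genes. Members gather around the start, with 29.2% in the bin that begins at the start against 1.65% of all genes.

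The segments carried their defining genes. The glucose transporter Slc5a2 averaged between 1989 and 2915 TPM in the PT-S1 groups and at most 1.77 TPM in the CCD groups, and the water channel Aqp2 averaged between 14911 and 41324 TPM in the CCD groups and at most 0.307 TPM in the PT-S1 groups. Genes with at least 1 TPM numbered between 9247 and 14875 per library. Of 69 libraries, 5 stood apart, with a median correlation to the rest of their table between 0.824 and 0.914, under a limit of 0.92. Of these, 2 belong to sham animals 1 and 3 of PT-S1 at 24 h, 2 to UNx animals 1 and 2 of PT-S1 at 72 h, and 1 to sham animal 1 of CCD at 72 h. The tissue is bulk RNA of whole tubules, so more cells with a transcript and more transcript per cell cannot be told apart. Leukocytes, endothelium and fibroblasts can also divide. Only markers with a mean of at least 1 TPM were tested. These were 5 of 8 macrophage and leukocyte markers at each time in PT-S1 and 7 in CCD. Of 6 endothelial markers 5 were tested in every comparison. Of 6 fibroblast and mural cell markers, 0 were tested in PT-S1 at 24 h, 2 at 72 h, and 1 at each time in CCD. None of the tested markers was called, and in PT-S1 no gene at all was called. The part of these cells in the results was not tested. The summed macrophage and leukocyte markers ran from 46.0 to 88.0 TPM in sham and from 40.7 to 72.3 TPM in UNx animals of CCD at 24 h, and from 26.5 to 87.3 TPM and 39.9 to 88.6 TPM at 72 h. In the GENCODE annotation of GRCm38, exons of 17 of the 56 genes share bases with another gene, from 1.35% of the exon bases for Top2a to 29.3% for Kif20a, which meets Cdc23 on the opposite strand, and 22.8% for Ube2c, which meets Tnnc2. The libraries are not stated to keep strand, so reads there cannot be assigned to one gene with certainty.

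In sham animals these genes were low in the proximal tubule and higher in the collecting duct. The median over the 56 genes was between 0.443 and 0.537 TPM in the PT-S1 sham animals of 24 h and between 0.52 and 1.05 TPM in those of 72 h. In CCD sham animals it was between 1.46 and 3.08 TPM at 24 h and between 1.46 and 3.69 TPM at 72 h. At 24 h the sham mean was higher in CCD for 49 of 56 members, and for 42 of them all CCD sham animals lay above all PT-S1 sham animals. At 72 h these numbers were 48 and 32. At 24 h all PT-S1 sham animals were the higher ones for 7 members, Cks2, Haspin, Cenpe, Spc24, Spc25, Gpsm2 and Cit, and at 72 h for 5 of the same, without Cenpe and Spc24. The tables of both segments were scaled separately, so these levels are set side by side with no test. How many of all genes separate the segments in this way was not counted. The counts thus describe the members and do not set them apart from other genes.

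**Figure D2:**
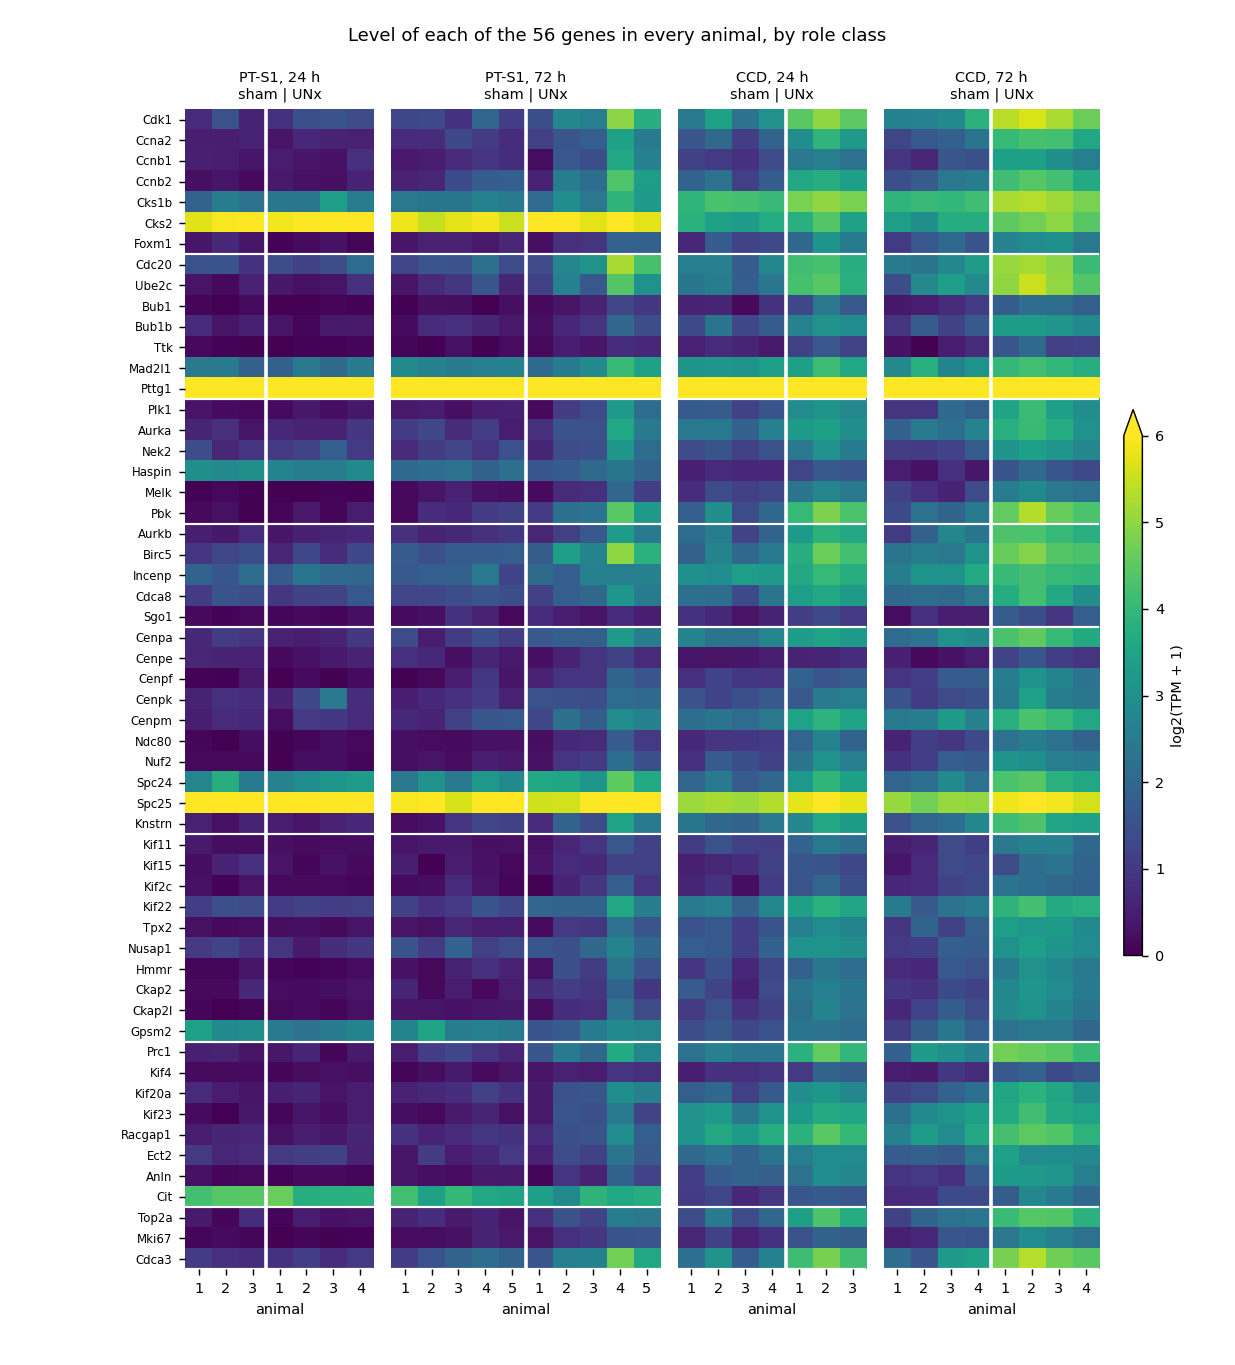
Level of each of the 56 genes (rows, in 8 role classes divided by white lines) in every animal (columns), as log2(TPM + 1), with the colour scale capped at 6. White vertical lines divide sham from UNx. Most rows are dark in PT-S1 at 24 h, and the UNx columns of both CCD panels are brighter than the sham columns in nearly every class, while Pttg1 is at the cap everywhere.

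In the collecting duct nearly all of these genes were higher after UNx, at 24 h and at 72 h, and 26 and 35 of them passed the test. A gene was called where the adjusted p of limma, a linear model with moderated variances fitted on log2(TPM + 1) across all genes with a mean of at least 1 TPM, was under 0.05. At 24 h, 53 of the 56 members passed the filter and 26 were called, all higher, against 0.327% of all 13775 genes tested that were called higher. These 26 members made up 57.8% of the 45 genes called higher. At 72 h, 55 members passed the filter and 35 were called, all higher, against 0.581% of 13770 genes, and they made up 43.8% of the 80 genes called higher. The members were chosen with earlier results of these data known. These shares therefore describe the list and are no independent support. The median change was 1.2 at 24 h and 1.47 at 72 h on the log2(TPM + 1) scale, where the medians over all genes were -0.04 and 0.01. The ratio of UNx to sham mean TPM had a median over the 56 members of 3.04 at 24 h and 3.80 at 72 h. At an unadjusted p under 0.05, 51 of 53 members were higher at 24 h (5.55% of all genes) and 53 of 55 at 72 h (4.66%), and none was lower. On the log2 scale every UNx animal lay above every sham animal in 51 members at 24 h (5.55% of all genes) and also in 51 members at 72 h (3.23%). Some tested members had a sham mean under 1 TPM and could pass the filter through their UNx animals alone. The lowest sham mean was that of Bub1 at 24 h, 0.541 TPM against 2.7 TPM after UNx. At 72 h it was that of Ttk, 0.333 TPM against 1.94 TPM. The counts and median changes thus describe the tested members only, while the ratios cover all 56. Without the filter on low values, 0 members were called at 24 h and 3 at 72 h. The number of members called also moved with single animals. At 24 h it was 3, 16 or 5 without sham animal 1, 2 or 4 and 1, 1 or 8 without UNx animal 1, 2 or 3. The count of 72 h was 23 or 19 without sham animal 1 or 2 and 4, 3 or 3 without UNx animal 1, 2 or 3. The median change stayed between 1.06 and 1.3 at 24 h and between 1.37 and 1.61 at 72 h whichever animal was left out. At 24 h principal cell markers also differed, with 3 of 5 higher at an unadjusted p under 0.05, none called, and a summed level of 15713 to 42730 TPM in sham animals against 39196 to 58909 TPM after UNx. The thick ascending limb markers summed to 97.1 to 3429 TPM in the sham animals and 81.8 to 198 TPM in the UNx animals of 24 h. The part of these markers in the result was not tested.

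**Figure D3:**
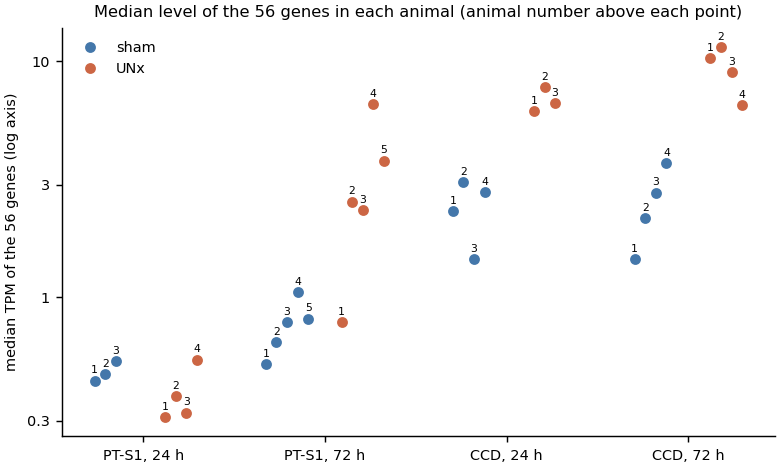
Median TPM of the 56 genes in each animal (y axis, log scale) for sham and UNx animals of each segment and time, with the animal number above each point. In CCD the UNx animals lie between 6.14 and 11.5 TPM and the sham animals between 1.46 and 3.69 TPM, and in PT-S1 at 72 h UNx animal 1 lies among the sham animals at 0.788 TPM.

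The median over the members separated the CCD animals completely. It was 2.32, 3.08, 1.46 and 2.80 TPM in sham animals 1 to 4 of 24 h and 6.14, 7.75 and 6.66 TPM in UNx animals 1 to 3. At 72 h the sham animals had 1.46, 2.16, 2.78 and 3.69 TPM and the UNx animals 10.3, 11.5, 9.01 and 6.5 TPM. The order of the animals was alike across genes. UNx animal 2 of 24 h had the highest value of its group for 50 of 56 members, UNx animal 2 of 72 h for 43, and UNx animal 4 of 72 h the lowest for 48. Both CCD comparisons use their own sham animals. The 2 lists of called members shared 25 genes, which are 96.2% of the list of 24 h and 71.4% of that of 72 h. Cenpm was called only at 24 h, and Anln, Bub1, Bub1b, Cenpa, Ckap2, Cks2, Hmmr, Kif11, Knstrn and Nuf2 only at 72 h. CHR letters were found for 15 of the 20 members called at 24 h that had a listed promoter and for 21 of 29 at 72 h, against 35 of 48 members with a promoter. No member's effect differed between the times by the test of the difference.

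The CDK1-cyclin engine drives entry into mitosis. Of its 7 genes, 5 were called higher in CCD at 24 h and 6 at 72 h, with median changes of 1.3 and 1.94. Ccnb2, cyclin B2, which activates CDK1, had 2.84, 3.69, 1.19 and 2.9 TPM in the sham animals against 10.8, 13.2 and 9.93 TPM after UNx at 24 h. The groups did not overlap, and the change was 1.81 (SE 0.24, limma adjusted p = 0.0223). At 72 h Ccnb2 had 2.41, 2.31, 4.31 and 5.54 TPM in the sham animals against 17, 20.3, 17.4 and 11.8 TPM after UNx, a change of 2.09 (SE 0.27, limma adjusted p = 0.0111). Ccna2, cyclin A2, which acts from DNA synthesis to early mitosis, had 1.69, 2.12, 2.56 and 4.95 TPM in the sham animals against 15.3, 18.1, 17.4 and 11 TPM after UNx at 72 h. The lowest UNx animal was above the highest sham animal, the ratio of means was 5.46, and the change was 2.26 (SE 0.24, limma adjusted p = 0.00794). Cdk1 is the kinase itself. It rose from 6.8 ± 2.83 TPM (SD, n = 4) to 25 ± 5.65 TPM (SD, n = 3) at 24 h and from 7.85 ± 4.55 TPM (SD, n = 4) to 37.8 ± 10.3 TPM (SD, n = 4) at 72 h. Ccnb1, cyclin B1, rose at 24 h by 1.3 (SE 0.18, limma adjusted p = 0.0226). Cks1b, a small subunit that helps CDKs bind their substrates, started from a higher level, with 14.4, 15.5, 14.7 and 17.1 TPM in the sham animals against 36.7, 39.2, 34.5 and 26.5 TPM after UNx at 72 h. All UNx animals were higher, with a change of 1.1 (SE 0.14, limma adjusted p = 0.0108). Cks1b has a retrotransposed copy, Cks1brt, and reads could be split between them. Its close relative Cks2 was called at 72 h, with 9.87, 6.95, 12.1 and 12.4 TPM in the sham animals against 21.8, 25.6, 30.5 and 20.9 TPM after UNx. At 24 h the Cks2 values overlapped, with 13.3, 9.76, 8.94 and 12 TPM in the sham animals against 13, 20.2 and 10.1 TPM after UNx, and the change of 0.31 (SE 0.23, limma adjusted p = 0.564) did not pass the threshold.

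The anaphase promoting complex (APC/C) is a ubiquitin ligase that ends mitosis, and the spindle checkpoint holds it back. Of the 7 members of this class, 2 were called higher at 24 h and 4 at 72 h. Ube2c, the ubiquitin-conjugating enzyme that works with the complex, had 4.57, 4.89, 2.48 and 5.83 TPM in the sham animals against 18.3, 23 and 13.6 TPM after UNx at 24 h. The lowest UNx animal had over 2 times the TPM of the highest sham animal, and the change was 1.91 (SE 0.21, limma adjusted p = 0.0118). At 72 h Ube2c had 2.52, 6.07, 9.27 and 7.27 TPM in the sham animals against 31.2, 44.8, 31.8 and 20.1 TPM after UNx, with a change of 2.36 (SE 0.38, limma adjusted p = 0.0275). Cdc20, the activator that hands substrates to the complex, rose by 1.63 (SE 0.26, limma adjusted p = 0.0301) at 24 h and 2.12 (SE 0.28, limma adjusted p = 0.0129) at 72 h. Its level at 72 h was 5.25, 3.99, 5.83 and 10.8 TPM in the sham animals against 32.9, 35.3, 30.1 and 16.2 TPM after UNx. Bub1b, the checkpoint protein BubR1, which inhibits Cdc20, had 1.02, 2.28, 1.27 and 2.36 TPM in the sham animals against 8.84, 8.99, 7.76 and 6.38 TPM after UNx at 72 h and rose by 1.79 (SE 0.23, limma adjusted p = 0.0108). Pttg1 is securin, which blocks the separation of sister chromatids until it is destroyed. It was the most abundant member in every group except the PT-S1 UNx animals of 24 h, where Spc25 was, and it did not rise with its class. In CCD it had 325, 302, 351 and 357 TPM in the sham animals against 282, 305 and 304 TPM after UNx at 24 h. The groups overlapped, and its change was -0.17 (SE 0.08, limma adjusted p = 0.353) at 24 h and -0.06 (SE 0.09, limma adjusted p = 0.952) at 72 h.

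Of the 6 mitotic kinases, 4 were called higher at each time in CCD. Pbk, a kinase of the MAPKK family that is active in mitosis, had the largest change of all members at both times. At 24 h it had 3.09, 7.04, 1.58 and 4.32 TPM in the sham animals against 15.5, 27.4 and 19.6 TPM after UNx, a change of 2.34 (SE 0.35, limma adjusted p = 0.0283). At 72 h it had 1.62, 3.78, 2.85 and 4.92 TPM in the sham animals against 22.6, 38.8, 23.2 and 19.2 TPM after UNx. The ratio of means was then 7.88, the change was 2.7 (SE 0.28, limma adjusted p = 0.00634), and the lowest UNx animal had about 4 times the TPM of the highest sham animal. Plk1, polo-like kinase 1, which acts on centrosomes, kinetochores and the cleavage furrow, had 2.37, 2.35, 1.23 and 2.27 TPM in the sham animals against 6.47, 7.74 and 6.22 TPM after UNx at 24 h and rose by 1.4 (SE 0.18, limma adjusted p = 0.021). Melk, a kinase of the AMPK family found in dividing cells, rose at 24 h by 1.34 (SE 0.20, limma adjusted p = 0.0283). Nek2, which separates the centrosomes, had 1.34, 1.06, 1.29 and 2.54 TPM in the sham animals against 7.72, 9.53, 7.78 and 5.87 TPM after UNx at 72 h and rose by 1.84 (SE 0.22, limma adjusted p = 0.00962). The sham values of Nek2 at 72 h all lay under 3 TPM and the UNx values above 5 TPM.

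The chromosomal passenger complex (Aurkb, Birc5, Incenp and Cdca8) corrects wrong attachments of chromosomes and later directs the cleavage of the cell, and shugoshin (Sgo1) guards the centromere. In both CCD comparisons 3 of these 5 genes were called higher, namely Aurkb, Birc5 and Cdca8. Birc5, survivin, had 4.08, 4.79, 4.18 and 8.26 TPM in the sham animals against 23.2, 28.4, 20.2 and 18.4 TPM after UNx at 72 h. Its change of 1.97 (SE 0.20, limma adjusted p = 0.00634) had the smallest adjusted p of all members, together with Pbk. At 24 h Birc5 had 3.02, 5.59, 2.99 and 5.89 TPM in the sham animals against 12.3, 24.1 and 18.4 TPM after UNx, with a change of 1.93 (SE 0.27, limma adjusted p = 0.0226). Cdca8, borealin, had 3.74, 3.52, 1.55 and 4.39 TPM in the sham animals against 9.19, 11.2 and 8.6 TPM after UNx at 24 h and rose by 1.4 (SE 0.24, limma adjusted p = 0.0355). Aurkb, the kinase of the complex, had 1.17, 2.6, 5.6 and 4.22 TPM in the sham animals against 19.2, 18.8, 15.1 and 12.9 TPM after UNx at 72 h and rose by 2.13 (SE 0.33, limma adjusted p = 0.0221). Incenp, the scaffold, was higher in all UNx animals at both times, with changes of 0.66 (SE 0.15, limma adjusted p = 0.0819) at 24 h and 0.97 (SE 0.22, limma adjusted p = 0.126) at 72 h, which did not pass the threshold.

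The kinetochore is the protein plate on the centromere that grips spindle fibres. Of 10 members, 4 were called higher at 24 h and 6 at 72 h, and all 9 tested at each time were higher at an unadjusted p under 0.05. Cenpm, part of the inner kinetochore network, had 3.95, 4.0, 3.27 and 4.44 TPM in the sham animals against 10.6, 13.8 and 10.4 TPM after UNx at 24 h, and its change was 1.37 (SE 0.15, limma adjusted p = 0.0118). Its 3 UNx animals were all above 10 TPM and its sham animals all under 5 TPM. Spc24 and Spc25 form the inner end of the NDC80 complex, which ties the kinetochore to spindle fibres. Spc24 had 3.1, 3.59, 6.27 and 3.99 TPM in the sham animals against 18.9, 20.8, 13.3 and 11.2 TPM after UNx at 72 h and rose by 1.73 (SE 0.25, limma adjusted p = 0.0184). Spc25 was the second most abundant member in CCD, with 33.5, 36.2, 34 and 39.4 TPM in the sham animals against 53.7, 70.1 and 55.6 TPM after UNx at 24 h. At 72 h it had 33, 25.3, 32.5 and 31.7 TPM in the sham animals against 56.5, 64, 58.1 and 48.2 TPM after UNx. The groups did not overlap at either time, and the changes were 0.71 (SE 0.11, limma adjusted p = 0.0283) and 0.87 (SE 0.13, limma adjusted p = 0.0188). Cenpe, a kinetochore motor, was under the filter at both times, and the checkpoint kinase Ttk and Sgo1 were under it at 24 h. Its group means were 0.304 TPM in sham animals and 0.577 TPM after UNx at 24 h, and 0.314 and 1.36 TPM at 72 h.

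Spindle motors and spindle proteins build and move the bipolar spindle. Of 10 members, 4 were called higher at 24 h and 7 at 72 h. Nusap1, which bundles microtubules around chromosomes, had 2.52, 2.14, 1.17 and 3.09 TPM in the sham animals against 7.33, 7.37 and 6.82 TPM after UNx at 24 h and rose by 1.41 (SE 0.20, limma adjusted p = 0.0226). Tpx2, which starts microtubule growth and activates the kinase Aurora A, rose at 24 h by 1.27 (SE 0.18, limma adjusted p = 0.0238). Ckap2, a microtubule-binding protein, had 1.34, 0.82, 1.55 and 1.7 TPM in the sham animals against 5.93, 7.93, 6.41 and 4.6 TPM after UNx at 72 h. The groups were far apart, and its change was 1.75 (SE 0.21, limma adjusted p = 0.00962). Kif22, a motor that pushes chromosome arms from the spindle poles and the most abundant member of this class over all tables, had 4.43, 2.2, 3.84 and 4.94 TPM in the sham animals against 13.9, 17.4, 11.7 and 12.8 TPM after UNx at 72 h and rose by 1.67 (SE 0.21, limma adjusted p = 0.0108). Gpsm2, which orients the spindle and also serves cell polarity outside mitosis, had a change of 0.49 (SE 0.26, limma adjusted p = 0.764) at 72 h, and its groups overlapped.

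The central spindle and cytokinesis proteins split the cell at the end of mitosis. Of 8 members, 2 were called higher at 24 h and 3 at 72 h, and all 8 lay higher in every UNx animal at both times. Prc1, which bundles the microtubules between the separating chromosomes, had 4.09, 5.18, 4.12 and 5.12 TPM in the sham animals against 13.3, 22.8 and 15.6 TPM after UNx at 24 h. It had one of the smallest adjusted p-values of the comparison, with a change of 1.73 (SE 0.19, limma adjusted p = 0.0118). Kif20a, a motor that carries the passenger complex to the midzone, rose by 1.3 (SE 0.22, limma adjusted p = 0.0355) at 24 h and 1.8 (SE 0.27, limma adjusted p = 0.0216) at 72 h. Anln, anillin, the scaffold of the contractile ring, had 1.01, 1.01, 0.75 and 2.54 TPM in the sham animals against 8.79, 8.4, 7.73 and 5.03 TPM after UNx at 72 h and rose by 1.94 (SE 0.25, limma adjusted p = 0.0129). Top2a, the topoisomerase that untangles sister chromatids, and Cdca3, an adaptor for mitotic entry, complete the called members. Top2a had 1.82, 4.48, 1.63 and 3.83 TPM in the sham animals against 9.81, 19.1 and 12.3 TPM after UNx at 24 h and rose by 2.01 (SE 0.31, limma adjusted p = 0.0289). At 72 h it had 1.66, 2.85, 3.72 and 4.54 TPM in the sham animals against 16.3, 20.6, 19.6 and 13.3 TPM after UNx and rose by 2.25 (SE 0.26, limma adjusted p = 0.00962). Cdca3 rose by 1.95 (SE 0.30, limma adjusted p = 0.029) and 2.22 (SE 0.39, limma adjusted p = 0.0408). Mki67, the source of the Ki-67 protein used to stain dividing cells, is named here outside the rule, after its values were seen, because it is the usual marker. It had 0.595, 1.23, 0.46 and 0.967 TPM in the sham animals against 1.95, 3.07 and 2.42 TPM after UNx at 24 h. It had 0.47, 0.59, 2.06 and 1.99 TPM in the sham animals against 4.23, 6.47, 5.0 and 3.76 TPM after UNx at 72 h. The groups did not overlap at either time, while its adjusted p-values in limma were 0.0838 and 0.0783.

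**Figure D4:**
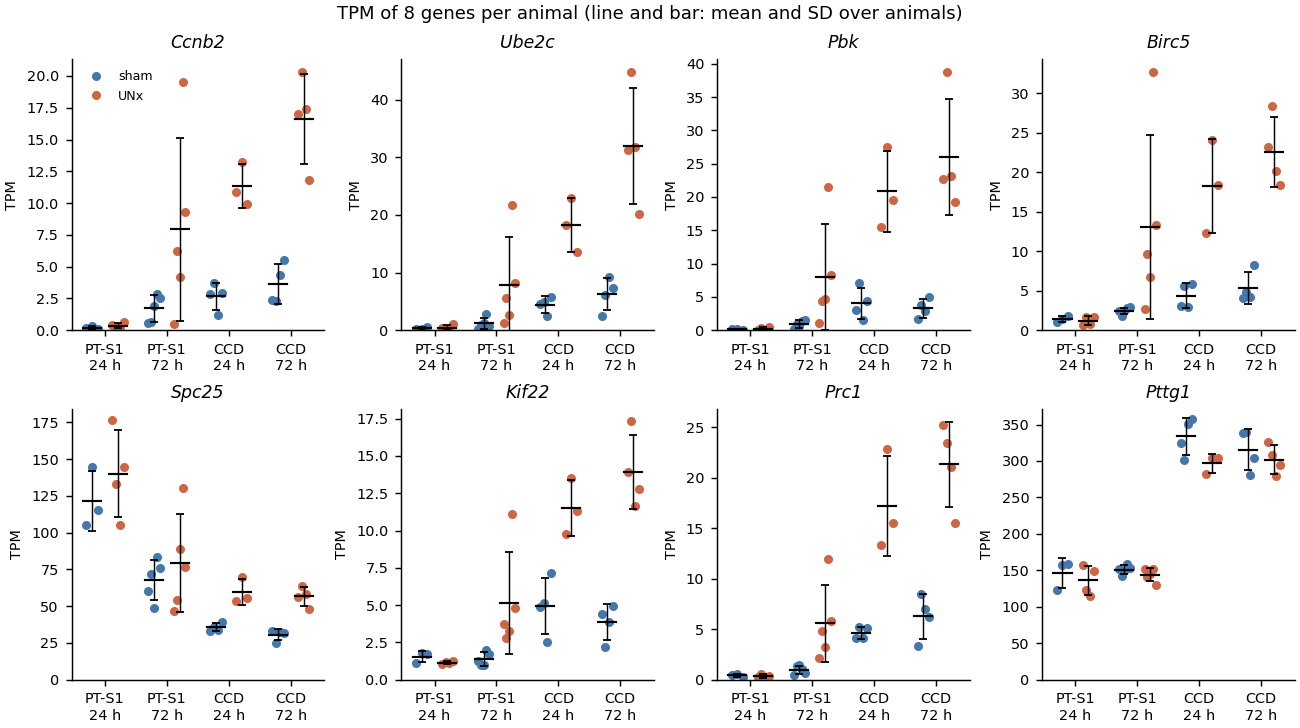
TPM (y axis, from 0) of 8 genes in each animal, with 1 point per animal, a line at the mean and bars of 1 SD, for sham and UNx animals of each segment and time. Ccnb2, Ube2c, Pbk, Birc5, Kif22 and Prc1 are higher in every UNx animal of CCD, Spc25 shows a smaller rise on a higher level, and the Pttg1 groups overlap in every comparison.

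In the proximal tubule at 72 h most of these genes had a higher mean after UNx, but none passed the threshold. Of the 56 members, 38 passed the filter on low values and 0 were called, like all 11886 genes tested there (0% called higher). The smallest adjusted p of limma among the members was 0.237. At an unadjusted p under 0.05, 29 of 38 members were higher (1.33% of all genes) and 0 lower (19.1% of all genes). The estimate was positive in 34 of 38, with a median change of 1.03 against -0.29 for all genes. A member near the filter could pass it through its UNx animals alone, so these counts describe the tested members only. Over all 56 members the ratio of UNx to sham mean TPM had a median of 4.04, and the UNx animals ranged widely. The median over the 56 genes was 0.52, 0.648, 0.785, 1.05 and 0.812 TPM in sham animals 1 to 5 and 0.788, 2.54, 2.35, 6.56 and 3.79 TPM in UNx animals 1 to 5. UNx animal 4 had the highest value of the UNx group for 50 of 56 members, and UNx animal 1 the lowest for 47. On the log2 scale all UNx animals lay above all sham animals in 5 of 38 members, Cenpk, Prc1, Kif22, Top2a and Cenpa (0.236% of all genes), while in TPM the Top2a groups overlapped. Without UNx animal 1, 41 members were tested and still 0 were called. With limma's array weights, which weight each animal by how well it fits, 32 members and 1346 genes were called.

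Single genes showed this spread. Birc5 had 2.4, 1.81, 2.4, 2.75 and 2.87 TPM in the sham animals against 2.7, 9.67, 6.71, 32.7 and 13.4 TPM after UNx in PT-S1 at 72 h. UNx animal 1 was within the sham range and animal 4 was more than 10 times above it, and the change was 1.63 (SE 0.45, limma adjusted p = 0.237). Cdk1 had 1.42, 2.14, 0.815, 3.28 and 1.58 TPM in the sham animals against 1.81, 6.29, 5.71, 31.3 and 12.4 TPM after UNx, a change of 1.8 (SE 0.51, limma adjusted p = 0.237). Pbk had 0.125, 0.925, 0.655, 1.44 and 1.46 TPM in the sham animals against 1.09, 4.34, 4.68, 21.5 and 8.3 TPM after UNx. It went from under 2 TPM in every sham animal to over 4 TPM in UNx animals 2 to 5, with a change of 1.88 (SE 0.49, limma adjusted p = 0.237). Prc1 was the clearest of the cytokinesis genes, with 0.445, 1.33, 1.43, 1.03 and 0.67 TPM in the sham animals against 2.12, 4.8, 3.22, 11.9 and 5.84 TPM after UNx and a change of 1.61 (SE 0.33, limma adjusted p = 0.237). No sham animal reached the lowest UNx animal. Kif23, a motor of the central spindle, had 0.17, 0.095, 0.355, 0.627 and 0.263 TPM in the sham animals against 0.33, 2.58, 2.53, 4.57 and 1.35 TPM after UNx and a change of 1.09 (SE 0.30, limma adjusted p = 0.237). Cenpk, part of the inner kinetochore, had 0.44, 0.65, 0.815, 1.13 and 0.523 TPM in the sham animals against 1.98, 1.75, 1.75, 3.34 and 3.19 TPM after UNx with no overlap. Its change was 0.97 (SE 0.19, limma adjusted p = 0.237), and its unadjusted p was the smallest of the members. Kif22 had 1.24, 0.975, 0.98, 2.02 and 1.72 TPM in the sham animals against 3.74, 2.83, 3.29, 11.1 and 4.79 TPM after UNx, also with no overlap. For other named members the changes were 1.14 ± 0.30 for Top2a, 1.12 ± 0.30 for Cenpa, the histone that marks centromeres, 1.73 ± 0.50 for Ube2c, 1.72 ± 0.56 for Cdc20, 1.16 ± 0.35 for Ccna2 and 1.15 ± 0.44 for Plk1 (± SE). They were 1.07 ± 0.40 for Aurkb, 0.84 ± 0.31 for Hmmr, a spindle-binding protein, and 1.32 ± 0.47 for Cdca3 (± SE). All of these were at the same adjusted p of 0.237 in limma. The 18 members under the filter had group means between 0.0927 and 0.562 TPM in sham and between 0.427 and 1.57 TPM after UNx. The highest of each class were Foxm1, Bub1b, Melk, Sgo1, Cenpf, Ckap2, Anln and Mki67. The library of UNx animal 1 of low correlation had a median over the 56 genes of 0.745 TPM and the other library of that animal 0.55 TPM. The low-correlation library of UNx animal 2 had 0.555 TPM and its other library 3.67 TPM. The 5 intercalated cell markers summed to 3.49 to 20.8 TPM in sham animals against 1.86 to 2.78 TPM after UNx, and 1 of 2 tested was lower at an unadjusted p under 0.05. The 6 endothelial markers summed to 116 to 283 TPM and 55.6 to 243 TPM, with 1 of 5 tested lower in the same sense. The 6 fibroblast and mural cell markers summed to 1.52 to 11.9 TPM in sham animals against 0.75 to 39.5 TPM after UNx, with neither of those tested at an unadjusted p under 0.05. Of these Acta2 had the largest difference in means, 1.39 TPM in sham animals and 12.0 TPM after UNx. Their part in the result was not tested.

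**Figure D5:**
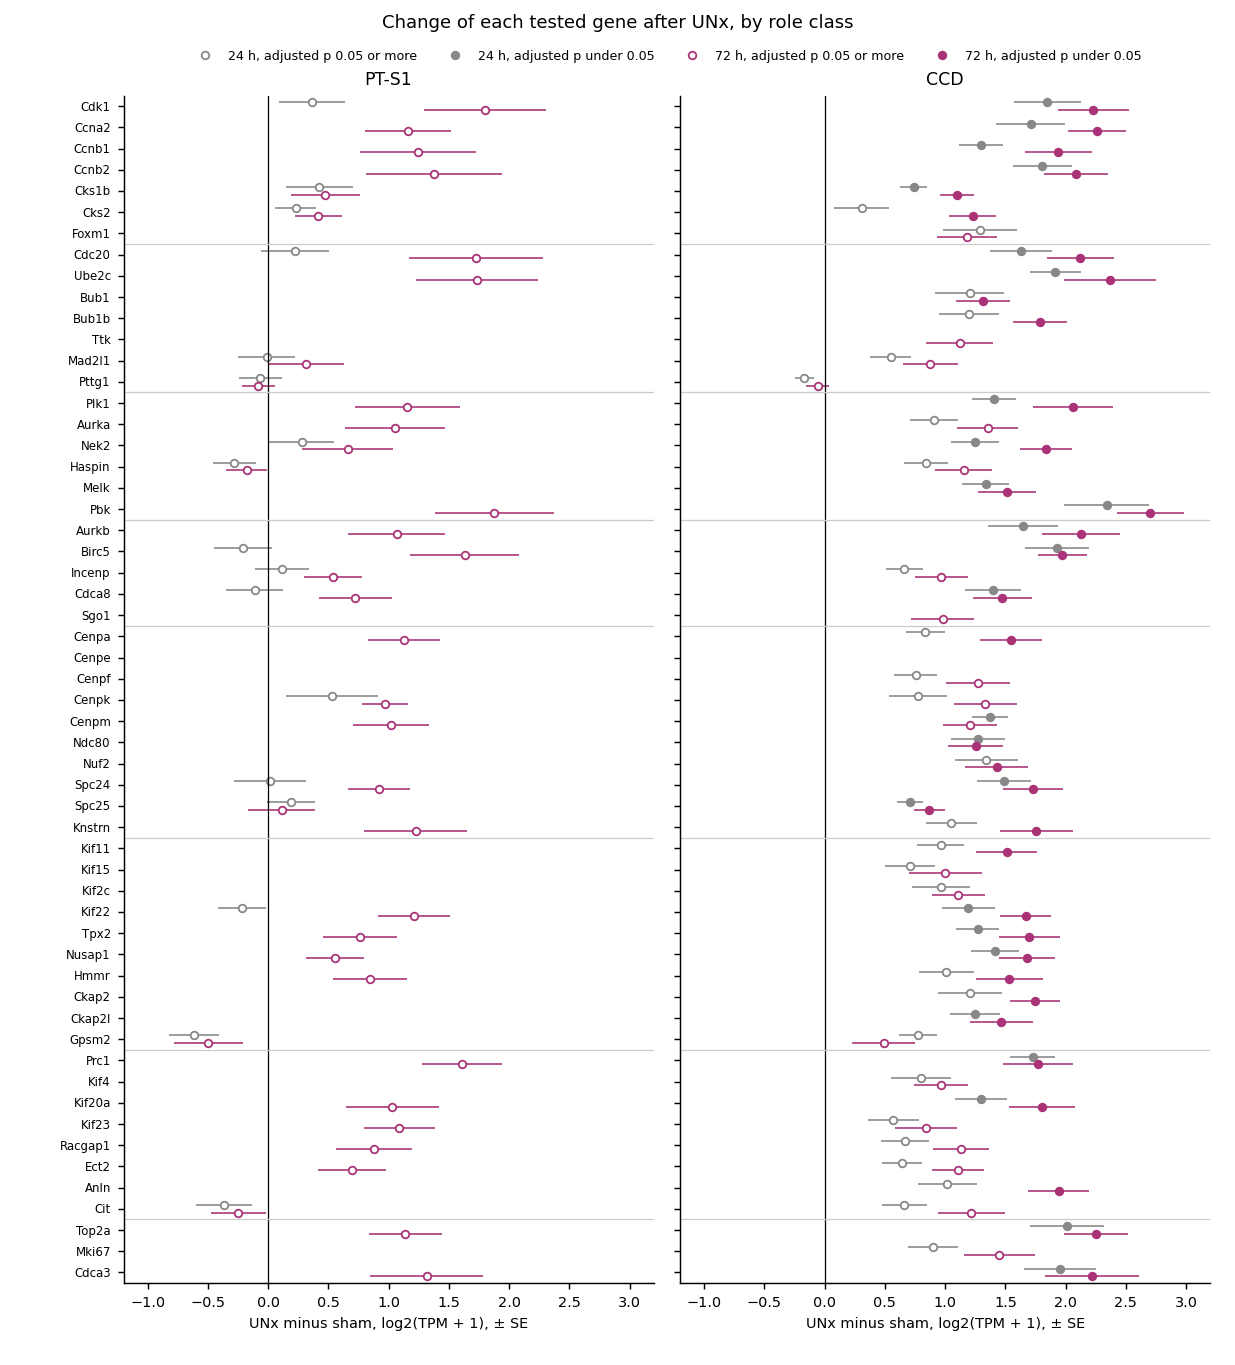
Change of each tested member after UNx (x axis, UNx minus sham on log2(TPM + 1), with bars of 1 SE) at 24 h and 72 h in PT-S1 and CCD. Rows are genes, with lines between the role classes, and filled points have an adjusted p under 0.05. Filled points are found in the CCD panel alone, 26 at 24 h and 35 at 72 h, and the bars of PT-S1 at 72 h are wide.

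In the proximal tubule at 24 h no member passed the test for a rise. Only 17 members passed the filter, 0 were called (0% of 11874 genes called higher), and 0 were higher at an unadjusted p under 0.05 (2.59% of all genes). None had all UNx animals above all sham animals (2.79% of all genes). The median change was 0.02 against -0.19 for all genes. Gpsm2 was the 1 member lower at an unadjusted p under 0.05 (15.2% of all genes), with 14.8, 6.17 and 7.84 TPM in the sham animals against 4.48, 3.77, 4.53 and 5.51 TPM after UNx and a change of -0.62 (SE 0.21, limma adjusted p = 0.254). It was also the 1 member with all UNx animals below all sham animals (12.1% of all genes). The other named members overlapped. Cdk1, added to compare with its rise in CCD, had 0.663, 1.93 and 0.537 TPM in the sham animals against 0.835, 1.91, 1.97 and 1.78 TPM after UNx. Birc5 had 0.997, 1.37 and 1.78 TPM in the sham animals against 0.595, 1.66, 0.76 and 1.65 TPM after UNx. Cenpk had 0.497, 0.785 and 0.707 TPM in the sham animals against 0.52, 1.64, 4.24 and 0.717 TPM after UNx, where UNx animal 3 stood alone. The changes were 0.43 ± 0.28 for Cks1b, 0.23 ± 0.17 for Cks2, 0.22 ± 0.28 for Cdc20, 0.28 ± 0.27 for Nek2, 0.12 ± 0.22 for Incenp and -0.22 ± 0.20 for Kif22 (± SE). The 39 members under the filter had group means between 0.0417 and 1.18 TPM in sham and between 0.0154 and 1.0 TPM after UNx. The highest of each class were Ccna2, Ube2c, Aurka, Aurkb, Cenpa, Nusap1, Ect2 and Cdca3. At these levels log2(TPM + 1) understates a change of a few-fold in TPM, most of all for the lowest members.

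A small set of members was abundant in PT-S1 in both groups. Pttg1 had 123, 157 and 159 TPM in the sham animals against 157, 124, 115 and 149 TPM after UNx at 24 h. At 72 h it had 152, 142, 149, 159 and 154 TPM in the sham animals against 151, 141, 145, 151 and 129.9 TPM after UNx. The groups overlapped, with changes of -0.06 (SE 0.18, limma adjusted p = 0.854) and -0.08 (SE 0.14, limma adjusted p = 0.70), whose sign turned under median-ratio scaling. Spc25 had 105, 144 and 115 TPM in the sham animals against 177, 133, 105 and 145 TPM after UNx at 24 h. Later, at 72 h, it had 60.2, 71.8, 49, 83.3 and 76 TPM in the sham animals against 47.1, 54.3, 88.6, 131 and 76.9 TPM after UNx. Its partner Spc24, which binds it in equal number in the NDC80 complex, had only 7.94 ± 3.96 TPM in PT-S1 sham animals of 24 h (SD, n = 3). In CCD, sham animals of 24 h had 35.8 ± 2.7 TPM of Spc25 and 3.46 ± 0.924 TPM of Spc24 (SD, n = 4). The message of Spc25 was thus far above that of Spc24 in both segments. Cks2 had 56.7, 43.4, 53.1, 59.4 and 45.2 TPM in the sham animals against 104, 89.7, 54.1, 70.4 and 53.6 TPM after UNx in PT-S1 at 72 h. Cit, citron kinase, which acts at the midbody and also has a long-known role in neurons, had 18.9, 20.8 and 22.5 TPM in the sham animals against 23.8, 12.9, 12.9 and 13 TPM after UNx at 24 h. It had 17.5, 9.72, 15.2, 11.2 and 10.5 TPM in the sham animals against 12, 6.78, 14.2, 10.9 and 12.3 TPM after UNx at 72 h, with overlap at both times. Haspin, the kinase that marks histone H3 at the centromere, had 7.02, 6.12 and 7.48 TPM in the sham animals against 5.54, 4.75, 4.83 and 6.41 TPM after UNx at 24 h, also with overlap. The effects of UNx on these genes in PT-S1 were 0.11 ± 0.28 for Spc25, 0.42 ± 0.19 for Cks2, -0.25 ± 0.23 for Cit (positive under quantile normalization, under median-ratio scaling and without the libraries of low correlation), -0.18 ± 0.17 for Haspin and -0.50 ± 0.29 for Gpsm2 at 72 h (± SE), none of which passed the threshold. In CCD, where Cit and Haspin are under 2 TPM in every sham animal of 72 h, both were higher in every UNx animal at both times. Haspin had 0.395, 0.22, 0.75 and 0.303 TPM in the sham animals against 2.01, 3.2, 2.03 and 1.51 TPM after UNx there at 72 h. Cit had 0.675, 0.72, 1.54 and 1.58 TPM in the sham animals against 2.4, 5.98, 4.5 and 3.21 TPM after UNx.

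Whether the effect of UNx differed between times or segments was tested as the difference of both effects in limma, over genes that passed the filter in both tables. Between 24 h and 72 h, 0 of 53 members differed in CCD (0% of 13253 genes). The estimate was larger at 72 h in 49 of 53, with a median difference of 0.36, and 3 members, Cks2, Anln and Cenpa, were larger at an unadjusted p under 0.05 (3.52% of all genes). The difference was 0.92 (SE 0.32, limma adjusted p = 0.968) for Cks2. In PT-S1, 0 of 17 members differed between the times (0% of 11455 genes). At an unadjusted p under 0.05, 3 of 17, Kif22, Birc5 and Spc24, were larger at 72 h (1.37% of all genes). Between the segments at 24 h, the effect was smaller in PT-S1 than in CCD for 16 of 17 members, with a median difference of -1.03. Here 2 of 17 members were called (0.137% of 10988 genes), Birc5 with -2.13 (SE 0.37, limma adjusted p = 0.0372) and Gpsm2 with -1.39 (SE 0.24, limma adjusted p = 0.0372). At an unadjusted p under 0.05, 11 of 17 were smaller in PT-S1 (12% of all genes). These calls moved with single animals. The number of members called was 5 without sham animal 3 and 4 without UNx animal 4 of PT-S1, and 0 without sham animal 1 or 2 or UNx animal 1 or 2 of PT-S1, without sham animal 1, 3 or 4 of CCD, or without any UNx animal of CCD. At 72 h, 0 of 38 members differed between the segments (0% of 11035 genes). The estimate was smaller in PT-S1 for 37 of 38, with a median of -0.69, and 11 of 38 were smaller at an unadjusted p under 0.05 (8.73% of all genes). The smallest adjusted p was that of Haspin, with -1.33 (SE 0.26, limma adjusted p = 0.179). For none of these differences was the share of all genes with the same sign counted. The median change over all genes, given above, was also lower in PT-S1 than in CCD at each time. The sign counts thus do not set the members apart from other genes. Effects on log2(TPM + 1) understate changes of low genes, and most members were lower in PT-S1 sham animals than in CCD. Over all 56 members the ratio of UNx to sham mean TPM had a median of 4.04 in PT-S1 and 3.80 in CCD at 72 h. At 24 h these medians were 0.94 and 3.04. Of the PT-S1 UNx animals of 72 h, animal 4 had the highest value for 50 of 56 members and animal 1 the lowest for 47. Ratios of means depend on such animals. Whether the smaller estimates at 72 h reflect a smaller ratio in PT-S1 was not tested.

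Beyond the 56 genes, 98 other genes of mitosis were examined, in lists also chosen with earlier results of these data known. The lists were other kinetochore proteins, cohesin and condensin, other APC/C subunits and partners, other regulators of mitotic entry, and other spindle and cytokinesis proteins. In CCD at 24 h, 3 of the 90 tested were called higher and 0 lower, and at 72 h 8 of 91 were called higher and 0 lower, where 0.327% and 0.581% of all genes were called higher. They were Troap, Ncaph and Knl1 at 24 h, and Tacc3, Cenph, Kif18b, Ncapg, Shcbp1, Knl1, Iqgap3 and Cdca2 at 72 h. Knl1, the kinetochore platform that recruits the checkpoint, had 0.763 ± 0.256 TPM in sham animals and 2.9 ± 0.744 TPM after UNx at 24 h (SD, n = 4 and 3), with a change of 1.15 (SE 0.21, limma adjusted p = 0.0426). Ncaph, a subunit of condensin, which compacts chromosomes, rose from 1.32 ± 0.625 TPM to 5.38 ± 1.49 TPM (SD, n = 4 and 3). Troap, a spindle protein, rose at 24 h by 1.33 (SE 0.18, limma adjusted p = 0.0226). Tacc3, which stiffens spindle fibres, rose at 72 h from 5.13 ± 0.97 TPM to 14.8 ± 2.96 TPM (SD, n = 4 in each), a change of 1.4 (SE 0.18, limma adjusted p = 0.0129). Kif18b, a motor that shortens spindle fibres, had a change of 1.53 (SE 0.23, limma adjusted p = 0.0201) at 72 h, Cenph, of the inner kinetochore, 1.65 (SE 0.24, limma adjusted p = 0.0182), and Ncapg, of condensin, 1.5 (SE 0.24, limma adjusted p = 0.0244). In CCD at 72 h median changes were 1.08 for the 19 tested spindle and cytokinesis genes and 0.58 for the 23 kinetochore genes. They were 0.14 for the 19 genes of cohesin and condensin, and 0.03 for the 17 of the APC/C list, of which 0 were called. The APC/C list holds subunits together with Fzr1, Fbxo5 and Ube2s, which are not subunits. Cdc20 and Ube2c, which work with the complex and rose, are among the 56 genes and not in this list. Why the lists differ was not tested. In PT-S1 none of the tested genes of these lists was called at either time. At 72 h, 5 of 66 tested were higher and 7 lower at an unadjusted p under 0.05 (1.33% and 19.1% of all genes), led by Numa1 with a change of -0.91 (SE 0.27, limma adjusted p = 0.237) and Knl1 with 1.08 (SE 0.34, limma adjusted p = 0.237). At 24 h, 0 of 60 were higher and 11 lower (2.59% and 15.2% of all genes), led by Numa1, a protein of the nuclear matrix and the spindle poles, with -0.76 (SE 0.22, limma adjusted p = 0.254).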

How the data were processed

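RNA-seq of microdissected tubules was analysed in 69 libraries. The labels' protocols name a Zymo kit for RNA and the SMART-Seq V4 kit for polyA cDNA. The submitters' processing notes name GRCm39, STAR and RSEM 1.3.3, without a role. The deposited values are TPM per gene and library, computed by the authors in 4 tables, treated as normalized separately. Of 69 columns, 47 matched a single sample and 22 a group and animal. Libraries of an animal were averaged on log2(TPM + 1), which understates changes of low genes. Genes with a mean of at least 1 TPM were tested with limma 3.58.1 in R 4.3.3 (eBayes with trend, two-sided), with Benjamini-Hochberg adjustment over all genes tested and a threshold of 0.05. The code was tested on simulated data. Named per comparison are the 2 members of each class with the smallest p, plus the most abundant member of each class, the highest untested member of each class, and the 5 other mitosis genes with the smallest p. Members and lists were chosen with earlier results of these data known. Motifs were searched in the RefSeq windows of GRCm38.p6, which is not the build of the tables.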

Additional observations from a re-analysis of the deposited data

Results flagged for a closer look

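In each group of 4 or more animals, the gap between the most extreme animal and its nearest neighbour was set against the whole range of the group, for the named members. Of 120 such groups, 4 had an animal far from the others by Dixon's 95% limit, and chance alone flags about 1 in 20. Cit in PT-S1 UNx animal 1 of 24 h lay high, at 4.63 on log2(TPM + 1) with the nearest animal at 3.81, and its gap was 0.9198 of the range. Birc5 in PT-S1 sham animal 2 of 72 h lay low, at 1.47 with the nearest at 1.72 and a gap of 0.7374. Cdca8 in CCD sham animal 3 of 24 h lay low, at 1.35 with the nearest at 2.17 and a gap of 0.8655. Spc25 in CCD sham animal 2 of 72 h lay low, at 4.72 with the nearest at 5.03 and a gap of 0.8466. At 24 h the effect of UNx differed between PT-S1 and CCD, by the test of the difference itself, for Birc5 (-2.133) and Gpsm2 (-1.393, both PT-S1 minus CCD on the log2 scale). With 1 animal left out, the number of members called by that test ran from 0 to 5, so these calls are not stable.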

How the results depend on the processing

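TPM hold no depth, so a low level cannot be told from a poorly sampled one. The median change of the members kept its direction in CCD under every alternative tried, and no named member that was called changed sign. Counts of calls were less stable, and the cause was not tested. Values are given in the order genes called, members called and members at an unadjusted p under 0.05, where they moved by over 1.5 times. Without a filter on low values they were 2 genes and 3 members at that p in PT-S1 at 24 h, 1 gene and 0 members called for CCD of 24 h, and 7 and 3 for CCD of 72 h. With a mean of at least 5 TPM, fewer members were tested, with 6 at that p in PT-S1 at 72 h, 17 called and 24 at that p for CCD of 24 h, and 39 genes, 20 members and 29 at that p for CCD of 72 h. Quantile normalization gave 1 gene and 2 members at that p in PT-S1 at 24 h, and median-ratio scaling 1 and 3. With every library as a replicate, which overstates n, the values were 85 genes and 0 members at that p in PT-S1 at 24 h, 18 genes and 2 members called at 72 h, 1027 and 51 for CCD of 24 h, and 150 genes for CCD of 72 h. With the animal as a random effect they were 100 genes and 0 members at that p, 10 genes and 2 members, and 485 genes in CCD at 24 h. Array weights gave 1426 genes, 1 member called and 5 at that p in PT-S1 at 24 h, and 1346 genes and 32 members at 72 h. Without the libraries of low correlation 1 gene was called in PT-S1 at each time and 129 in CCD at 72 h. A pseudocount of 0.1 moved the median change in CCD to 1.633 and 2.047.

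For the differences, no filter gave 1 gene for time in PT-S1, 43 genes and 12 members for the segments at 24 h, and 1 gene at 72 h. At 24 h between segments, a mean of at least 5 TPM gave 9 genes, 0 members and a median of -0.2957, quantile normalization and median-ratio scaling 24 genes each, and the log2 of the mean TPM 0 members. Without the libraries of low correlation the genes called were 187 for time in PT-S1, 179 (7 members) for the segments at 24 h and 9 at 72 h.

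Sham and UNx animals share numbers. The deviations of same-numbered animals had correlations between -0.366 and 0.328, with no common direction, so the animals were not treated as pairs. With so few animals per group, this cannot exclude a pairing. A fit with the replicate number as a block gave 80 genes in PT-S1 at 24 h, 0 genes and 0 members for CCD of 24 h, and 3 genes and 1 member for CCD of 72 h.

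With 1 animal left out, genes called ran from 0 to 8 and members at an unadjusted p under 0.05 from 1 to 2 in PT-S1 at 24 h. In CCD genes called numbered 7 to 78 at 24 h and 8 to 73 at 72 h, and members called 1 to 19 and 3 to 31. For the differences, leaving out animals was chosen after seeing the data. Genes called ran from 0 to 1 for time in CCD, from 0 to 163 (members 0 to 5) for the segments at 24 h and from 0 to 1 at 72 h.

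Some small changes of uncalled members turned sign. In PT-S1 at 24 h array weights gave -0.1222 for Cdc20, -0.008043 for Cks1b and -0.000932 for Spc25, and Pttg1 was 0.01155 under quantile normalization and 0.1538 under median-ratio scaling. With 1 animal left out Cdc20 ran from -0.009304 to 0.3516, Incenp from -0.02233 to 0.2488 and Pttg1 from -0.2044 to 0.01874. In PT-S1 at 72 h Cit was 0.08351 under quantile normalization, 0.09584 under median-ratio scaling and 0.06689 without the libraries of low correlation, Pttg1 was 0.3063 under median-ratio scaling, and Spc25 ran from -0.09952 to 0.269 with 1 animal left out. In CCD at 72 h Pttg1 was 0.006641 without the library of low correlation.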
